A study of Mus musculus with 16 samples.

Results

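A set of 9 amino acid transporter genes was followed in leukemic and non-leukemic bone marrow cells from wild-type (WT) and IL-6 KO mice. They were chosen by symbol and are Slc7a5, Slc3a2, Slc7a11, Slc1a5, Slc38a1, Slc38a2, Slc7a1, Slc7a6 and Slc43a1. All 9 were found in both expression tables, among 15080 genes listed for leukemic cells (tumor) and 13344 listed for the other marrow cells (stroma). WT or IL6KO C57BL/6J mice, 6 to 8 weeks old when purchased, received 500000 BCR-ABL+, Arf-/- B-cell acute lymphoblastic leukemia (B-ALL) cells by tail vein. Marrow was taken 8 days later without any drug treatment. Red cells were lysed, and mCherry+ leukemic cells were sorted apart from mCherry- cells. RNA-sequencing gave 4 libraries for each host genotype and compartment, 16 in all. The same leukemic cells, which were Arf-/- and BCR-ABL+ and carried mCherry from a retroviral vector, went into both hosts, so genotype always refers to the host. The labels do not say which libraries came from the same mouse, so p-values measure the spread between these libraries.

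Amino acid transporters of the plasma membrane work as a network. Exchangers such as Slc7a5 bring in one amino acid only by releasing another, while loaders such as Slc38a1 and Slc38a2 use the sodium gradient to concentrate the small neutral amino acids, glutamine among them, that are then exchanged. Slc1a5 is itself an exchanger that depends on sodium. Several Slc7 proteins reach the membrane only when joined to the heavy chain made from Slc3a2. Rapidly dividing lymphoid cells and red cell precursors are both known for a high demand on this network.

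On GRCm38 the genes for the heavy chain and its partners lie at chr19:8706882-8723369 (Slc3a2), chr8:121881150-121907694 (Slc7a5), chr8:106168857-106198706 (Slc7a6) and chr3:49892526-50443614 (Slc7a11). The glutamine carriers lie at chr7:16781340-16798274 (Slc1a5) and, on one chromosome, at chr15:96571418-96642913 (Slc38a1) and chr15:96687392-96699730 (Slc38a2). Slc7a1 lies at chr5:148327410-148399904 and Slc43a1 at chr2:84838850-84863594. No annotated exon of the 9 overlaps another gene.

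The values are normalized counts, which were scaled separately for tumor and stroma. Their size was therefore compared within a compartment, and across compartments only as a ratio between genes of one library. Sums of normalized counts ran from 38817792 to 44552085 in WT tumor, from 47267047 to 55592959 in IL-6 KO tumor, from 8805689 to 17470735 in WT stroma and from 33973016 to 44191950 in IL-6 KO stroma. The signal recognition particle RNA Rn7s1 held 3.40% to 4.11% of the sum in WT tumor and 5.40% to 6.24% in IL-6 KO tumor, against 19.2% to 50.1% in WT stroma and 10.9% to 79.0% in IL-6 KO stroma, and CT010467.1 held up to 61.5% of one IL-6 KO stroma library, replicate 4. The median gene had a residual SD of 0.21 (log2) within tumor groups and 0.86 within stroma groups. Tumor libraries held the B-lineage markers (summed level 155018 to 178352 over 17 of 18 listed genes). In stroma the erythroid markers had the largest sum of the marker lists (108998 to 485466, 25 of 26 genes), and of the mesenchymal and endothelial list 7 of 14 genes, Cxcl12 and Lepr among them, were not in the table. Stroma therefore means mCherry- marrow cells here. In these bulk libraries fewer cells of a type and less RNA per cell cannot be told apart. Il6 itself is absent from both tables and was not analysed here.

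Promoters are shown for the transporters that later results turn on: Slc7a1, which was higher in IL-6 KO tumor, Slc43a1, which was among the leading transporters of stroma, and Slc7a11, the cystine carrier that was scarce in tumor. RefSeq windows on GRCm38.p6, from 250 bases before to 50 bases after the start site, were matched for 6 of the 9 genes and read on the gene's strand. No window was available for Slc1a5, Slc7a5 and Slc38a1. Capitals mark matches to 4 motifs searched on both strands: TGATGNAA (ATF4 with C/EBP), TGACNNNGC (NRF2), CACGTG (the Myc E-box) and TTCNNNGAA (STAT). The Slc7a1 window lies at chr5:148399855-148400154 (minus strand), the Slc43a1 window at chr2:84840073-84840372 (plus strand) and the Slc7a11 window at chr3:50443564-50443863 (minus strand).
Slc7a1: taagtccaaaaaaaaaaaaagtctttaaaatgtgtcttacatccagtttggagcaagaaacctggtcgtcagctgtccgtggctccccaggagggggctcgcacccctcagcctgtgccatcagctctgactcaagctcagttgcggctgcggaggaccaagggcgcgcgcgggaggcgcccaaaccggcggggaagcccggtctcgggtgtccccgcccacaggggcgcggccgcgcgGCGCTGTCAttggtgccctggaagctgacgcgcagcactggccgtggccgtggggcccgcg
Slc43a1: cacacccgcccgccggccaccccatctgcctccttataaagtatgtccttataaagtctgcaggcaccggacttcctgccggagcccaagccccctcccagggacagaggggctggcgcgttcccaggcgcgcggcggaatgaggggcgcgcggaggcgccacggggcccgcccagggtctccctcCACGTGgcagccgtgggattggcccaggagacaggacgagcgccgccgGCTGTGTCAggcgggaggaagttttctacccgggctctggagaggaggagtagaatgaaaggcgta
Slc7a11: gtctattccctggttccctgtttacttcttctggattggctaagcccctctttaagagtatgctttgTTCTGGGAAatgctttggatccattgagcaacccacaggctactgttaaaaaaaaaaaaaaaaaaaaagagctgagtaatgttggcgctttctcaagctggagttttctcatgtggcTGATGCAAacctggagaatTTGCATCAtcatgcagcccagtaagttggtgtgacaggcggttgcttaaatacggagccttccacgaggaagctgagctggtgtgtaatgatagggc
The Slc7a11 window held a pair of ATF4 motif matches, TGATGCAA beginning 66 bases upstream of the start and its reverse-strand form TTGCATCA beginning 47 bases upstream, beside a STAT match 183 bases upstream. Of 32851 promoter windows, 3.97% held an ATF4 match, 12.4% an NRF2 match, 7.15% an E-box and 8.30% a STAT match. None of the other members with a window held an ATF4 match. NRF2 matches stood in the windows of Slc38a2 (27 bases upstream), Slc7a1 (11), Slc43a1 (16) and Slc7a6 (both of its overlapping windows), the E-box stood 64 bases upstream in Slc43a1, and a second Slc7a1 window held a STAT match 146 bases upstream. The Slc3a2 window (chr19:8713848-8714147) held none, and it lies inside the annotated gene and not at its outermost start. The Slc43a1 window and the second Slc7a1 window likewise lie inside their genes and not at the outermost start. A match describes letters in a window and not a bound site.

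Leukemic cells carried a broad set of these transporters, with the large neutral amino acid exchanger in first place. Per kilobase of merged exon, which allows genes to be compared, Slc7a5 had the highest level of the 9 in WT tumor at 2414 ± 136 (SD, n = 4) normalized counts per kilobase, at a median percentile of 95.8 among all genes of a library. Slc38a2 (1127 ± 60.4), Slc3a2 (1105 ± 98.4) and Slc1a5 (1065 ± 87.0) followed within one another's spread. Slc38a1 (538 ± 16.5), Slc7a1 (479 ± 41.0) and Slc7a6 (474 ± 77.9) formed a lower tier with overlapping ranges. Slc43a1 was at 236 ± 23.4, and Slc7a11 was close to the floor at 0.47 ± 0.32, at a median percentile of 1.53. In IL-6 KO tumor Slc7a5 was again first at 2540 ± 195, and Slc1a5 came next at 1576 ± 137, with every library above every library of Slc3a2 and Slc38a2. The level of Slc38a1 depends on the length used, since per kilobase of its longest transcript it was 1276 ± 39.2 in WT tumor, again in place 5 of the 9, and its place in IL-6 KO tumor moved from 7 to 5.

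Host genotype was compared within tumor, which asks whether leukemic cells grown without host IL-6 differ in these transporters. Slc1a5 and Slc7a1 rose in IL-6 KO hosts and none of the 9 fell, but removal of a trend with GC content and length, given below for each gene, ended the call of Slc1a5 and gave one of a lower Slc7a5. Thus 2 of 9 passed the test (limma adjusted p under 0.05), beside 19.8% of all 14493 genes tested, with 10.6% called higher and 9.16% called lower. Every IL-6 KO library stood above every WT library for Slc1a5 and Slc7a1, beside 13.6% of all genes, and also for Slc7a11, which passed the filter on low values only through its IL-6 KO libraries and is not counted with them. The median log2 fold change of the 9 was 0.10, beside -0.01 over all genes.

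Slc1a5 makes the sodium-dependent neutral amino acid exchanger that brings glutamine into cells. Its normalized count was 4689, 4010, 4283 and 4792 in the WT tumor libraries 1 to 4, and 7301, 5932, 6403 and 6672 in the IL-6 KO libraries. The lowest IL-6 KO library was thus above the highest WT library. The fold was 1.48 (95% interval 1.30 to 1.69), a log2 fold change of 0.57 with a standard error of 0.08 (limma adjusted p = 0.00329), and the exact permutation p of 0.0286 was the smallest that 4 libraries against 4 allow. After removal of a loess trend along GC content and transcript length from each library, the log2 fold change of Slc1a5 fell to 0.26 and no longer passed (limma adjusted p = 0.0623). Its longest transcript has a GC content of 56.7%, the highest of the 9, which ranged from 40.7% in Slc7a11.

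Slc7a1 makes the main carrier of arginine and lysine and needs no heavy chain. It stood at 5492, 5106, 5298 and 6190 in WT tumor and at 7426, 6595, 6595 and 7003 in IL-6 KO tumor. Again no library of one genotype reached the range of the other. The fold was 1.25 (95% interval 1.11 to 1.41), a log2 fold change of 0.32 with a standard error of 0.08 (limma adjusted p = 0.0171, exact permutation p = 0.0286). The limma call was lost without WT library 3 (adjusted p = 0.0518), IL-6 KO library 1 (0.0548) or IL-6 KO library 4 (0.0519), with a log2 fold change of 0.29 to 0.32.

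Neutrophil markers moved with the genotype in the same libraries. Of 16 mature neutrophil genes tested, 10 rose in IL-6 KO tumor and none fell, as did 7 of 9 genes of neutrophil precursors and 5 of 14 of monocytes and macrophages, beside 10.6% of all genes called higher and 9.16% called lower. The summed mature neutrophil level was 5280 to 5970 in WT and 18492, 19274, 8172 and 16905 in IL-6 KO tumor libraries 1 to 4. In IL-6 KO library 3, where that sum was lowest of the genotype but above every WT library, Slc1a5 was at 6403 and Slc7a1 at 6595. The part of neutrophils in the values of Slc1a5 and Slc7a1 was not tested.

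**Figure D1:**
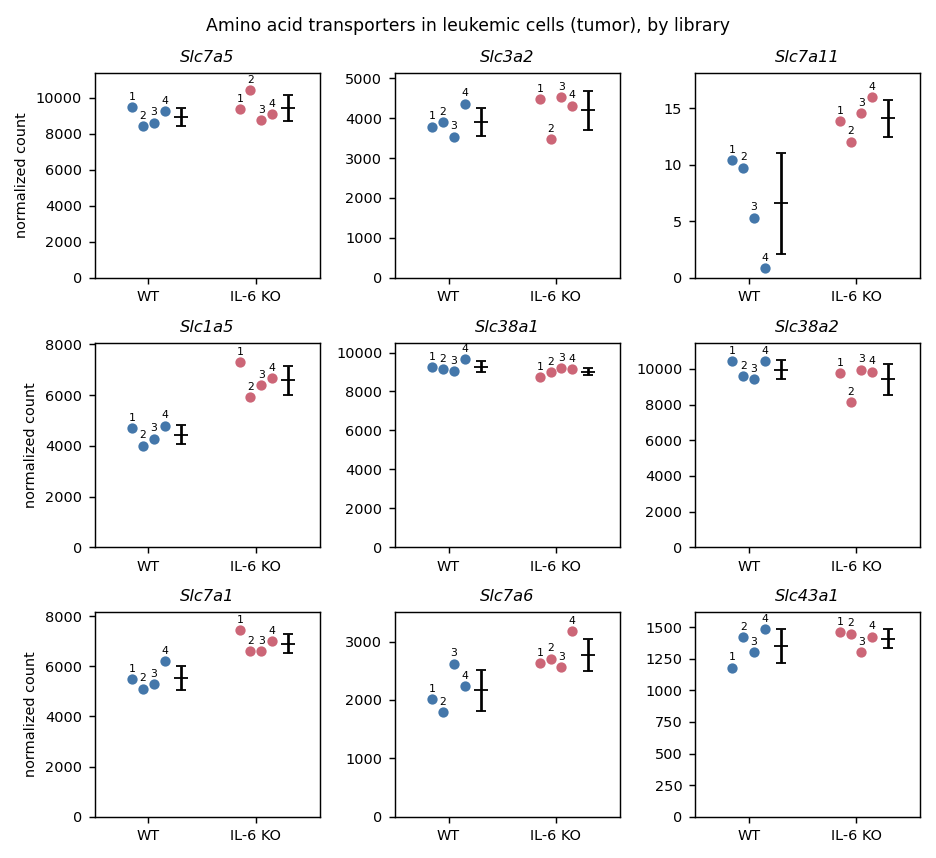
Normalized counts of the 9 transporters in tumor, one panel per gene, with WT libraries in blue and IL-6 KO libraries in red, numbered 1 to 4, and the mean ± SD (n = 4) in black beside each group. All axes start at 0. The genotypes do not overlap for Slc1a5, Slc7a1 and Slc7a11, the last at counts of 0.83 to 16.0.

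The heavy chain and its partner Slc7a5 did not pass the test. Slc7a5, the light chain that exchanges glutamine for leucine and other large neutral amino acids, was at 9476, 8422, 8630 and 9275 in WT and 9395, 10430, 8744 and 9109 in IL-6 KO tumor. The groups overlapped, with a fold of 1.05 and a 95% interval of 0.94 to 1.18 (limma adjusted p = 0.508). Its direction turned with the GC content and length trend removed, to a log2 fold change of -0.23 that passed the test (limma adjusted p = 0.0272). Slc3a2 was at 3792, 3902, 3536 and 4366 in WT and 4483, 3477, 4520 and 4314 in IL-6 KO tumor. The fold was 1.07 with an interval of 0.92 to 1.25, or 0.10 on the log2 scale, which turned to -0.10 with that trend removed (limma adjusted p = 0.499 and 0.543). One Slc3a2 transcript shares a stretch of up to 173 bases at 97% identity or more with 14 other genes, 9 of them in each table, so some of its reads may be divided with them.

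Slc7a6 joins the same heavy chain and exchanges cationic for neutral amino acids. Its counts were 2012, 1789, 2624 and 2233 in WT and 2627, 2709, 2559 and 3173 in IL-6 KO tumor. Only WT library 3 reached into the IL-6 KO range. The fold of 1.29, or 0.36 on the log2 scale, missed the threshold (limma adjusted p = 0.0597, exact permutation p = 0.0571). Of the 8 runs with 1 library left out it passed in 1, without that overlapping library (0.46 on the log2 scale, limma adjusted p = 0.0319). The lowest log2 fold change of these runs was 0.28, without WT library 2, and the limma adjusted p reached 0.154.

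Slc7a11, the light chain of the cystine and glutamate exchanger, was barely present in tumor. It was at 10.4, 9.76, 5.33 and 0.83 in WT and 13.9, 12.0, 14.6 and 16.0 in IL-6 KO libraries. The groups did not overlap, but the gene passed the filter of a mean over 10 only through the IL-6 KO group. The fold of 2.45 had a 95% interval of 0.95 to 6.34 (limma adjusted p = 0.163).

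The sodium-coupled carriers Slc38a1 and Slc38a2, which load cells with glutamine and other small neutral amino acids, kept overlapping ranges. Slc38a1 ran from 9030 to 9679 in WT and from 8749 to 9187 in IL-6 KO tumor. Its fold of 0.97 had a 95% interval of 0.90 to 1.06 (limma adjusted p = 0.644). Slc38a2 was at 10415, 9594, 9412 and 10424 in WT and at 9768, 8119, 9961 and 9852 in IL-6 KO tumor, where library 2 stood below the others, and its fold was 0.94 with an interval of 0.84 to 1.07 (limma adjusted p = 0.488). Slc43a1, a facilitated carrier of large neutral amino acids that works without a heavy chain, ran from 1181 to 1483 in WT and from 1303 to 1461 in IL-6 KO tumor (fold 1.05, interval 0.91 to 1.20, limma adjusted p = 0.628). The small differences of Slc38a1, Slc38a2 and Slc43a1 changed sign with the GC content and length trend removed, to log2 fold changes of 0.0003, 0.01 and -0.05.

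**Figure D2:**
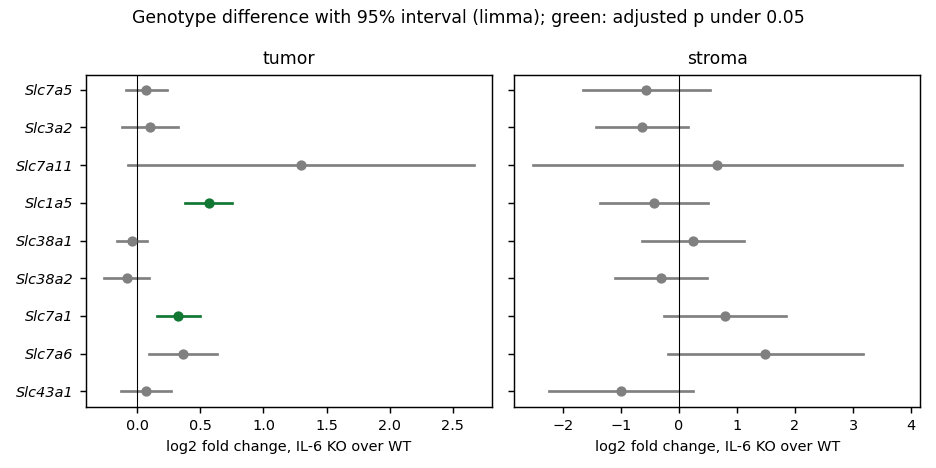
Log2 fold change of each transporter, IL-6 KO over WT, with its 95% interval from limma, in tumor (left) and stroma (right), on separate axes. Slc1a5 at 0.57 and Slc7a1 at 0.32 in tumor are drawn in green (adjusted p under 0.05), and every stroma interval includes 0.

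The ratio of Slc1a5 to Slc38a2, another glutamine carrier, uses the same Slc1a5 values and is not a second result. No share over all genes was computed for ratios between genotypes. The log2 ratio of Slc1a5 to Slc38a2 within a library was -1.17 ± 0.06 (SD, n = 4) in WT tumor and -0.52 ± 0.10 in IL-6 KO tumor, with ranges of -1.26 to -1.12 and -0.64 to -0.42. These ratios keep the GC content and length trend. With it removed, the log2 fold changes were 0.26 for Slc1a5 and 0.01 for Slc38a2, against 0.57 and -0.08 before. The log2 ratio of Slc7a5 to Slc3a2 was 1.20 ± 0.12 in WT and 1.17 ± 0.28 in IL-6 KO tumor. That of Slc43a1 to Slc7a5 was -2.73 ± 0.19 and -2.74 ± 0.08.

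The genes whose values followed each transporter most closely over the 8 tumor libraries were named by Pearson's r of log2 values, among 11238 genes with a mean of at least 50. The libraries share the genotype difference, so r describes these 8 libraries only. For Slc1a5 they were Dgkd, Akr1b3 and Dctpp1 (r = 0.991, 0.991 and 0.990), and for Slc7a1 they were Ncdn, Hyou1 and Tspan4 (0.987, 0.980 and 0.979). For Slc7a5 the closest was H2-T-ps (0.985), for Slc3a2 Mios (0.970), for Slc7a6 Pgm2 (0.972), for Slc38a1 Lsm1 (0.933) and for Slc38a2 Ppil4 (0.964).

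Around the transporters, genes that use, make or sense amino acids were counted in tumor from 7 lists, again beside 10.6% and 9.16% of all genes. These lists were chosen with earlier results of these data known. Of 20 cytosolic aminoacyl-tRNA synthetases, which charge tRNAs, 7 rose and 1 fell in IL-6 KO hosts (median log2 fold change 0.20). Nars, for asparagine, rose from 5542 ± 256 to 7870 ± 813 (SD, n = 4), or by 0.50 on the log2 scale, Farsa by 0.48 and Dars by 0.41, while Tars, for threonine, decreased by 0.42 (limma adjusted p = 0.00415, 0.00218, 0.00360 and 0.00482). Of 22 genes of the ATF4 response and amino acid synthesis, 5 rose and 1 fell (median 0.21). Shmt2, the mitochondrial serine hydroxymethyltransferase, rose by 0.57 (limma adjusted p = 0.00194) and Atf5 by 0.61 (0.00360). Atf4 itself rose by 0.29 (0.0127) and Phgdh, the first enzyme of serine synthesis, by 0.34 (0.0102), and neither passed with the GC content and length trend removed (0.02 and 0.05).

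Of 31 genes of amino acid sensing by mTORC1, 5 rose and 1 fell (median 0.10). The Ragulator subunits Lamtor4 and Lamtor1 rose by 0.48 and 0.45 on the log2 scale, Sec13, a subunit of GATOR2 and of vesicle coats, rose by 0.40, and the Rag GTPase Rragd decreased by 0.57 (limma adjusted p = 0.00921, 0.0225, 0.00934 and 0.00459). Of 17 genes of glutamine and glutathione metabolism, 5 rose and none fell (median 0.15), among them the transaminases Got2 (0.40) and Got1 (0.28), the thioredoxin reductase Txnrd1 (0.23) and the glutathione peroxidase Gpx1 (0.40), with limma adjusted p of 0.0289, 0.0345, 0.0242 and 0.0176. With the GC content and length trend removed, 6 synthetases, 2 ATF4 genes, 3 sensing genes and 0 glutamine and glutathione genes were called higher, and the median log2 fold changes of these lists were 0.085, 0.039, 0.044 and 0.089. Shmt2, Atf5, Farsa, Nars, Dars, Tars, Rragd and Sec13 passed in every alternative run, each library left out included. When 1 library was left out, glutamine and glutathione genes called higher numbered from 0, without WT library 3 or IL-6 KO library 4, to 5. They numbered 1 without WT library 2 or IL-6 KO library 1, and 2 without IL-6 KO library 3. Sensing genes called higher numbered 2 without WT library 2 or 3 and 3 without IL-6 KO library 1, 3 or 4. Synthetases called higher numbered 11 without IL-6 KO library 2, and 3 glutamine and glutathione genes were then called lower beside 5 higher. Array weights called 2 of that list lower. The number of calls over all genes also moved with these settings, as given below. The shares of 10.6% and 9.16% thus do not apply to the counts in the alternative runs.

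Other transporters moved in small numbers. Of 28 further plasma membrane transporters 8 were tested, of which Slc6a6, the taurine carrier, rose by 0.49 and Slc6a9, a glycine carrier used by red cell precursors, fell by 1.53 on the log2 scale (limma adjusted p = 0.0307 and 0.0260). In the lysosome 1 of 10 rose, Slc38a7, a glutamine and asparagine carrier (0.37, limma adjusted p = 0.0430). In mitochondria 1 of 10 rose, Slc25a29, a carrier of basic amino acids (0.39, limma adjusted p = 0.0420). With the GC content and length trend removed, Slc6a6, Slc38a7 and Slc25a29 no longer passed, at log2 fold changes of 0.45, 0.09 and 0.12. Slc6a9 missed the threshold with quantile normalization (limma adjusted p = 0.0528) and without WT library 2, IL-6 KO library 1 or IL-6 KO library 4 (0.0677, 0.0715 and 0.0705). In the alternatives with all libraries or 1 left out, Slc6a6 missed it 7 times, Slc38a7 8 times and Slc25a29 9 times.

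Stroma used the same 9 genes in a different order. Slc1a5 was highest per kilobase in WT stroma at 578 ± 139 (SD, n = 4) normalized counts per kilobase, at a median percentile of 98.0. Slc43a1 (209 ± 73.6), Slc7a5 (194 ± 70.1) and Slc3a2 (146 ± 53.6) followed and did not differ beyond their spread. Slc38a2 (60.3 ± 11.1), Slc7a1 (23.5 ± 14.5) and Slc38a1 (12.4 ± 3.65) were lower, and Slc7a6 (2.85 ± 1.09) and Slc7a11 (1.16 ± 0.51) were lowest. In IL-6 KO stroma Slc1a5 was again first at 498 ± 346 per kilobase.

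Between the host genotypes, 0 of 9 passed in stroma (limma), 0 of 9 had an unadjusted p under 0.05, and all 9 overlapped. Over the 12202 genes tested, 0.0082% passed, 9.15% had an unadjusted p under 0.05 and 5.79% did not overlap. The median log2 fold change of the 9 was -0.31, beside -0.01 over all genes. At this spread most intervals span several-fold differences.

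Slc7a5, Slc1a5 and Slc43a1 varied alike among the IL-6 KO stroma libraries. Slc1a5 was at 1999, 2537, 1928 and 3180 in WT and at 1074, 2173, 4084 and 974 in IL-6 KO stroma, so IL-6 KO library 3 was the highest of the 8 and libraries 1 and 4 the lowest. Slc7a5 was at 482, 888, 513 and 994 in WT and at 247, 574, 1276 and 252 in IL-6 KO stroma. Slc43a1, which is known to supply leucine for hemoglobin synthesis in red cell precursors, was at 1352, 1471, 569 and 1389 in WT and at 314, 932, 1549 and 213 in IL-6 KO stroma. Each had its highest value in IL-6 KO library 3 and its lowest values in IL-6 KO libraries 1 and 4. Their folds were 0.74, 0.68 and 0.50, with 95% intervals of 0.39 to 1.41, 0.32 to 1.45 and 0.21 to 1.18 (limma adjusted p = 0.782, 0.758 and 0.610).

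The summed erythroid markers moved in the same libraries. They were 249922, 302433, 238448 and 303441 in WT and 108998, 291177, 485466 and 112000 in IL-6 KO stroma. Relative to that sum, a ratio chosen after the values were seen, Slc1a5 was at 7.998, 8.39, 8.09 and 10.5 per 1000 erythroid counts in WT and at 9.85, 7.46, 8.41 and 8.69 in IL-6 KO stroma. The highest and the lowest of the 8 libraries thus differed by 1.40 times, against 4.20 times for the count of Slc1a5 itself. For Slc7a5 the span was 1.70 times relative to the sum and 5.17 times for the count, and for Slc43a1 it was 2.85 and 7.28 times. For Slc3a2 the ratio spanned more (8.12 times) than the count (3.07 times). The same held for Slc38a1 (11.1 and 3.02 times), Slc38a2 (9.45 and 2.84 times), Slc7a1 (9.80 and 5.49 times) and Slc7a6 (24.2 and 10.5 times). Narrower spans were not particular to the erythroid sum. Relative to the summed B-lineage markers, the spans of Slc1a5, Slc7a5 and Slc43a1 were 2.79, 3.76 and 4.06 times. Relative to the mature neutrophil sum they were wider than the counts, at 15.6, 20.5 and 27.1 times. The part of erythroid cells in the values of Slc1a5, Slc7a5 and Slc43a1 was not tested.

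**Figure D3:**
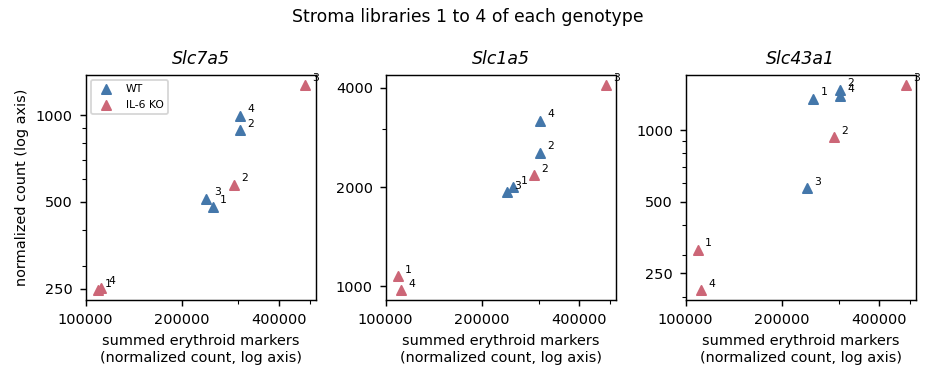
Normalized count of Slc7a5, Slc1a5 and Slc43a1 in each stroma library (vertical, log axis) against the summed erythroid markers of the same library (horizontal, log axis), with WT in blue and IL-6 KO in red and library numbers beside the points. IL-6 KO libraries 1 and 4 lie lowest on both axes at sums of 108998 and 112000, and IL-6 KO library 3 lies highest at 485466.

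The closest genes over the 8 stroma libraries, among 8077 compared, were named by the same measure as in tumor. Slc7a5 was closest to Add2 (r = 0.987), Slc1a5 (0.986) and Cdr2 (0.984). Slc1a5 was closest to Zdhhc14 (0.990) and Add2 (0.988), and Slc43a1 to Dmtn (0.987), Mfsd2b (0.980) and Lpcat1 (0.970). Add2 and Dmtn encode proteins of the red cell membrane skeleton. Slc3a2 was closest to Mapkap1 (0.968), and Slc38a2 to Tdg (0.974). Marker levels differed widely among these 8 libraries and their read depth is unknown, so each r describes these libraries only. The part of erythroid cells in these likenesses was not tested.

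Slc3a2 was at 739, 376, 344 and 607 in WT and at 440, 366, 241 and 255 in IL-6 KO stroma. Its fold of 0.64 had a 95% interval of 0.37 to 1.12 (limma adjusted p = 0.610). Slc7a1 was at 163, 368, 98.9 and 453 in WT and at 443, 391, 543 and 256 in IL-6 KO stroma, a fold of 1.72 with an interval of 0.83 to 3.58 (limma adjusted p = 0.639). Both gene ranges overlapped. The genotype difference of Slc1a5 and Slc7a1 was not tested for a difference between tumor and stroma.

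Slc7a6 was at 7.28, 10.99, 18.7 and 15.2 in WT and at 76.7, 69.98, 17.8 and 17.9 in IL-6 KO stroma. IL-6 KO libraries 1 and 2 stood above the other 6. Its fold of 2.80 had a 95% interval of 0.87 to 9.01 (limma adjusted p = 0.583, exact permutation p = 0.0857).

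Slc7a11 was at 7.26, 16.1, 24.8 and 16.4 in WT stroma and at 30.5, 21.0, 0 and 565 in IL-6 KO stroma. One library, IL-6 KO replicate 4, set its mean, and this was the library in which CT010467.1 held 61.5% of the sum. Its log2 fold change was 0.66 with all libraries and -0.84 without that library (limma adjusted p = 0.919 and 0.837). The genes closest to Slc7a11 in stroma were Svil, Stim2 and Cybb (r = 0.984, 0.980 and 0.980), the last a subunit of the phagocyte oxidase. These r cover libraries as far apart as IL-6 KO replicates 3 and 4, and no r was computed without either. Mature neutrophil markers summed to 36779, 35764, 9247 and 34420 in IL-6 KO stroma libraries 1 to 4 and to between 8882 and 17143 in WT stroma. Per 1000 of these counts Slc7a11 was at 0.83, 0.59, 0 and 16.4 in the IL-6 KO libraries and at 0.82 to 1.61 in WT. The part of neutrophils in the values of Slc7a11 was not tested.

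Slc38a1 was at 186, 218, 299 and 151 in WT and at 230, 193, 178 and 457 in IL-6 KO stroma, and its log2 fold change of 0.24 changed to -0.05 without IL-6 KO library 4 (limma adjusted p = 0.888 and 0.971). Slc38a2 was at 642, 579, 416 and 494 in WT and at 281, 389, 366 and 798 in IL-6 KO stroma, with a fold of 0.80 and an interval of 0.46 to 1.40 (limma adjusted p = 0.823). Library 4 was the highest IL-6 KO library for both sodium-coupled carriers.

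**Figure D4:**
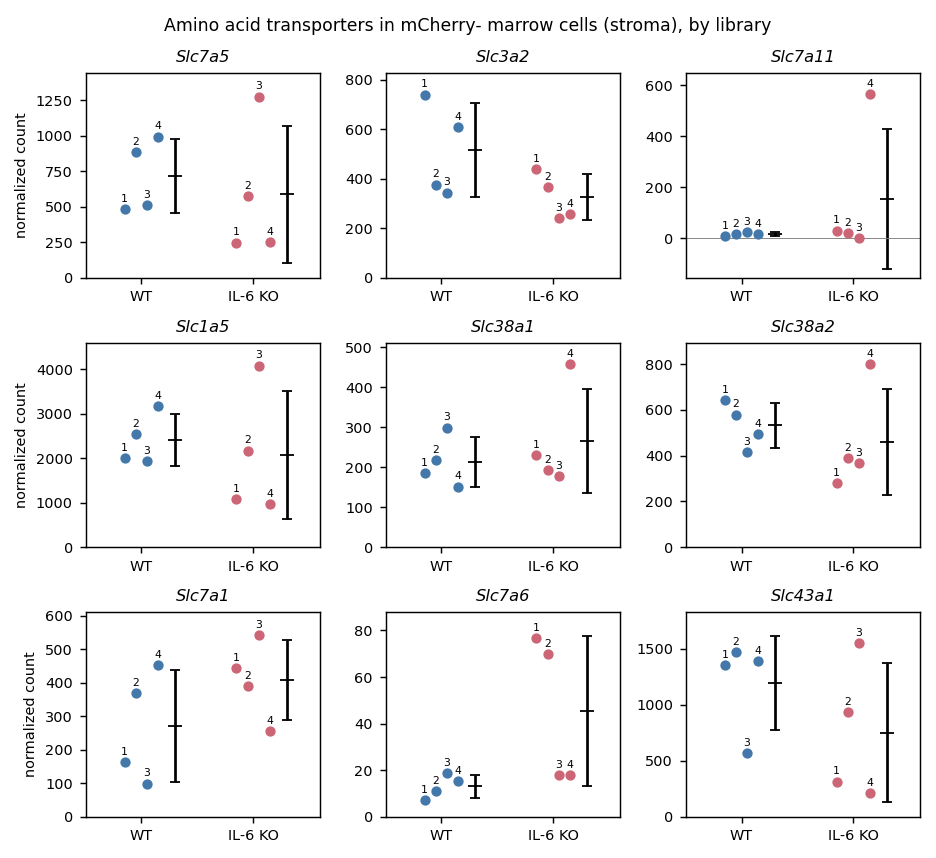
Normalized counts of the 9 transporters in stroma, drawn as for tumor, with libraries numbered 1 to 4 and the mean ± SD (n = 4) in black. All axes start at 0 except that of Slc7a11, where the SD reaches below 0. The genotypes overlap in every panel, IL-6 KO library 3 is highest for Slc7a5, Slc1a5 and Slc43a1, and library 4 is the only one far from the rest for Slc7a11 (565).

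In the 7 surrounding lists 0 genes passed in stroma (limma). At an unadjusted p under 0.05 there were 2 of 20 synthetases, 3 of 30 sensing genes, 3 of 17 genes of glutamine and glutathione metabolism, 1 of 8 other plasma membrane transporters and none of the other lists, beside 9.15% of all genes. Sars, for serine, had a log2 fold change of 0.78, with every IL-6 KO library above WT, and Dars one of 0.91 (limma adjusted p = 0.484 and 0.537). Of the 20 synthetases, 1 had every IL-6 KO library above WT and 1 had every one below, beside 5.79% of all genes without overlap. Gclm, a subunit of the enzyme that starts glutathione synthesis, was at 1094 ± 154 (SD, n = 4) in WT and 514 ± 272 in IL-6 KO stroma, and Gpx1 at 5218 ± 1061 and 2986 ± 1315 (limma adjusted p = 0.432 and 0.501). Nprl3, of the GATOR1 complex that restrains mTORC1, had a log2 fold change of -1.50 and Lamtor4 one of 1.29 (limma adjusted p = 0.470 and 0.465). Ddit3, a stress factor downstream of ATF4, had -0.87 and Slc6a20a, a proline carrier, -1.30 (limma adjusted p = 0.593 and 0.432).

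Leukemic and stromal libraries differed in how the transporters stood to one another. In 4 of the 6 ratios described, no tumor library overlapped any stroma library. For Slc7a11 to Slc3a2, counted among the 4, the compartments overlapped with a pseudocount of 0.5. For background, over 10886 genes, a ratio to Slc7a5 had all tumor libraries below all stroma libraries for 24% of genes, a ratio to Slc3a2 for 16.7% and a ratio to Slc38a2 for 32.3%, and 4.97% had all tumor libraries above for a ratio to Slc38a2. These are ratios of counts without regard to gene length, so they are compared between groups and their sign is not one of levels. No test was run across compartments.

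Between the carriers of large neutral amino acids, the log2 ratio of Slc43a1 to Slc7a5 was -2.73 ± 0.19 (SD, n = 4) in WT tumor and 0.71 ± 0.57 in WT stroma. In IL-6 KO hosts it was -2.74 ± 0.08 in tumor and 0.27 ± 0.39 in stroma. The tumor libraries ran from -3.00 to -2.56 and the stroma libraries from -0.24 to 1.49. Slc43a1 was thus lower relative to Slc7a5 in every tumor library than in any stroma library. Per kilobase of merged exon Slc43a1 was below Slc7a5 in all 8 tumor libraries and in 5 of the 8 stroma libraries. The stroma order depends on the length used. Per kilobase of the longest transcript Slc43a1 was below Slc7a5 only in WT stroma library 3 (144.8 against 145.9) and IL-6 KO stroma library 4 (54.1 against 71.6), among stroma libraries.

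Among the glutamine carriers, the log2 ratio of Slc1a5 to Slc38a2 ran from -1.26 to -0.42 in tumor libraries and from 0.29 to 3.48 in stroma libraries. Per kilobase of merged exon Slc1a5 was below Slc38a2 in all 4 WT tumor libraries. It was above Slc38a2 in all 4 IL-6 KO tumor libraries and all 8 stroma libraries. Per kilobase of the longest transcript the order turned in WT tumor library 4 (1707.3 for Slc1a5 against 1704.3) and was otherwise the same. The ratio of Slc38a1 to Slc38a2 was near 0 in tumor (-0.10 ± 0.05 in WT and -0.06 ± 0.14 in IL-6 KO) and lower in stroma (-1.34 ± 0.60 and -0.78 ± 0.35), without overlap.

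Among the partners of the heavy chain, the log2 ratio of Slc7a6 to Slc7a5 was -2.06 ± 0.24 in WT tumor and -5.68 ± 0.66 in WT stroma. IL-6 KO stroma ran from -6.09 to -1.67 and so reached the tumor range (-2.24 to -1.52) in library 1. The log2 ratio of Slc7a11 to Slc3a2 was -9.31 ± 1.32 in WT tumor, -8.11 ± 0.11 in IL-6 KO tumor and -4.95 ± 1.17 in WT stroma, and in IL-6 KO stroma it ran from -7.92 to 1.14. The gap to the highest tumor library (-7.99) rests on library 3, where Slc7a11 was listed at 0, and closes with a pseudocount of 0.5. The ratio of Slc7a5 to Slc3a2 overlapped between the compartments, at 1.20 ± 0.12 in WT tumor and 0.48 ± 0.78 in WT stroma.

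**Figure D5:**
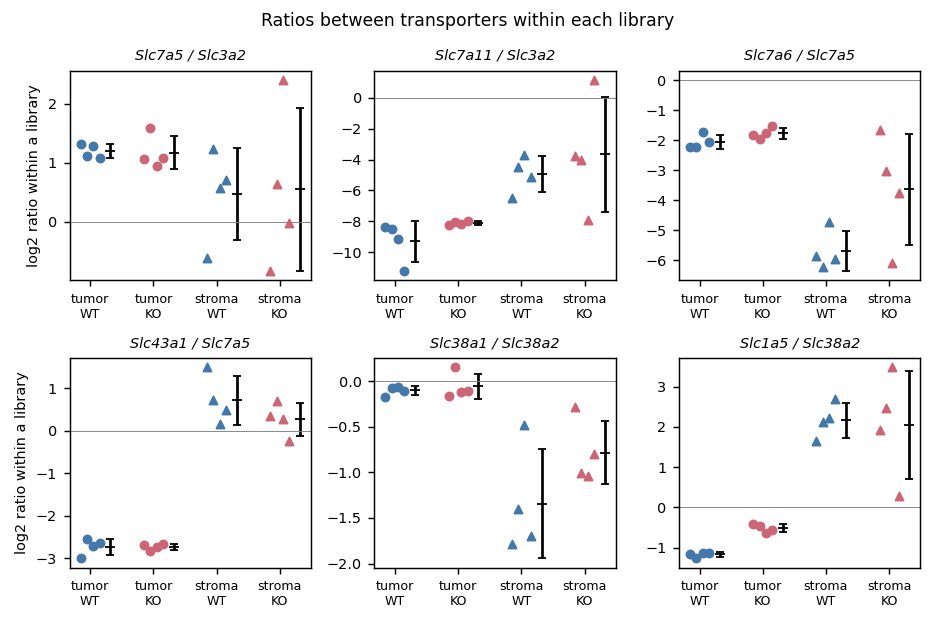
Log2 ratio between transporters within each library (vertical), for tumor (circles) and stroma (triangles) of WT (blue) and IL-6 KO (red, marked KO) hosts, with the mean ± SD (n = 4) in black. Slc43a1 to Slc7a5 runs from -3.00 to -2.56 in tumor and from -0.24 to 1.49 in stroma, and Slc1a5 to Slc38a2 runs from -1.26 to -0.42 in tumor and from 0.29 to 3.48 in stroma. Ratios are of counts without regard to gene length, so the line at 0 marks equal counts, not equal levels.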

How the data were processed

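The authors quantified reads of 75 nucleotides from ribosomal RNA-depleted, strand-specific libraries against mm10 with Salmon 1.3.0, with its GC bias correction, and normalized the estimated counts with DESeq2 1.28.1, per the labels and the methods. The deposited normalized counts are a scaled signal, not whole reads, and the read depth of each library is unknown. The deposited tables of the authors' own tests (fold changes and p-values) were not used.

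Each compartment was fitted alone with limma 3.58.1 (R 4.3.3) on log2(normalized count + 1), trended eBayes, for 14493 tumor and 12202 stroma genes with a mean over 10, two-sided, with Benjamini-Hochberg adjustment over all genes and a threshold of 0.05. Single genes also had an exact permutation test over 70 splits. The fit was tested on simulated data. GENCODE vM21 (GRCm38) gave exon lengths and named 15069 and 13338 identifiers. BLAST 2.17.0 sought shared stretches of at least 150 bases.

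The members, lists, ratios and motifs were chosen with earlier results of these data known. Of each list, up to 4 called genes with the smallest p were named in tumor. In stroma up to 2 genes of a list were named by the smallest p, and none of the lysosomal and mitochondrial lists. Alternatives were pseudocounts of 0.5 and 5, no filter, a mean over 50, quantile normalization, median centring, array weights, a replicate block, removal of the GC content and length trend (loess, span 0.3), and each library left out in turn.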

Additional observations from a re-analysis of the deposited data

Results flagged for a closer look

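A library far from the other 3 of its group was looked for in 36 groups of transporter values and 24 groups of ratios, where chance gives about 1 in 20. It was found for 2 values. Slc38a2 had its lowest IL-6 KO tumor value in replicate 2, at a normalized count of 8119, and the gap to the next library took up 0.904 of the range of the group on the log2 scale. Slc43a1 had its lowest WT stroma value in replicate 3, at 569, with a gap of 0.911 of the range.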

How the results depend on the processing

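The count of genes called in tumor, 2870, was 1823 with the GC content and length trend removed and ranged from 1572 (without IL-6 KO library 4) to 3328 (without IL-6 KO library 2) when 1 library was left out, with 1784 and 1713 without WT libraries 2 and 3 and 1606 without IL-6 KO library 1. The count of transporters called in tumor, 2, ranged from 1 to 2 when 1 library was left out, and was 1 without IL-6 KO library 1 or 4, where Slc7a1 missed the threshold. Without WT library 3 Slc7a6 took the place of Slc7a1. Array weights called 3, Slc7a6 among them (0.36, limma adjusted p = 0.0432). With the GC content and length trend removed the count was again 2, but the genes were Slc7a1 and Slc7a5. In that setting the log2 fold changes in tumor that changed sign were those of Slc7a5 (-0.23), Slc3a2 (-0.10), Slc38a1 (0.00030), Slc38a2 (0.013) and Slc43a1 (-0.053). In stroma 0 transporters were called in every alternative, while the count of genes called, 1, was 4 with array weights, 2 with the GC content and length trend removed, and 1 to 3 when 1 library was left out (3 without WT library 3, 2 without IL-6 KO library 1 or 4). Leaving out 1 stroma library moved the log2 fold change of Slc7a11 between -0.84 and 2.21 and that of Slc38a1 between -0.054 and 0.42, each below 0 without IL-6 KO library 4. For the genes named from the lists in tumor, 279 values under an alternative stayed past the threshold, 61 missed it and none changed sign. A mean over 50 gave no value for Slc7a11 in tumor or Slc7a6 in stroma.

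Libraries of the same number did not deviate together (correlations of -0.02 to 0.00 in tumor and -0.03 to 0.13 in stroma), so the numbers were not taken as pairs. With the replicate number as a block, 2230 genes were called in tumor, with the same 2 transporters, and 1 in stroma. The cause of these changes was not tested. The read depth of each library is unknown, and no limit of detection was set.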
